A study of Drosophila melanogaster with 6 samples.

Results

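The genes described here encode 10 peptide hormones of the fly gut, namely *Tk*, *NPF*, *Dh31*, *AstA*, *AstC*, *Mip*, *CCHa1*, *CCHa2*, *sNPF* and *CCAP*. They were chosen by name, through the current symbol or an older spelling in the deposited table, and each of the 10 was measured by 1 probe set, out of 12998 gene entries in all. Expression was measured in whole midguts dissected from adult females aged 7 days, in 3 samples of wild type and 3 samples of *Apc1* mutants, with midguts pooled within a sample and each sample hybridized to 1 Affymetrix Drosophila array. The mutants are Apc1-/- animals that carry the null allele Apc1Q8 in every cell of the body. The wild-type strain is Canton S according to the methods of the study and w1118 according to the deposited design text, so strain and genotype cannot be told apart, and nothing in the labels says whether the samples of a genotype came from separate cultures. The p-values therefore measure the spread between these samples, which may in part be technical.

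Enteroendocrine cells are scattered secretory cells of the midgut epithelium that arise from intestinal stem cells and release peptide hormones toward the muscle, the enterocytes, the nerves and the circulation. Each cell makes a small set of peptides, and the set depends on the cell class and on the region of the gut. One large class makes AstC, often with AstA, Mip, CCHa1 or CCHa2, and another makes Tk with NPF or Dh31. The peptides are cut out of longer precursors, are mostly amidated at their end, are stored in dense core vesicles and act on G protein-coupled receptors.

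Of the 10 hormone genes, 7 had a limma adjusted p under 0.05 between the genotypes, against a background of 14.3% of all gene entries. *Tk*, *Dh31*, *AstA*, *AstC*, *Mip* and *CCHa1* rose in *Apc1* mutants, which makes 6 genes where 8.89% of all entries rose. *NPF* fell, where 5.39% of all entries fell. *CCHa2*, *sNPF* and *CCAP* did not pass the test. The median difference of the 10 genes was 0.81 on the log2 scale, and that of all entries was 0.01. The values of the genotypes did not overlap in 9 of the 10 genes, compared with 35.2% of all entries. Higher values in the mutants made up 6 of these genes (21.0% of all entries) and lower values 3 (14.2% of all entries). With a change of more than 2-fold also required 5 of the 10 passed (6.26% of all entries), and at an adjusted p under 0.01 it was 6 (5.51% of all entries). Because the arrays measured whole midguts, more or fewer cells of a type and more or less RNA per cell cannot be told apart. Levels of different probe sets are not directly comparable with each other, so changes are read from differences between samples. Below, dim and places against the array median describe probe set signal and do not rank genes by amount of transcript. Summed marker levels weigh the brightest probe sets most.

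**Figure D1:**
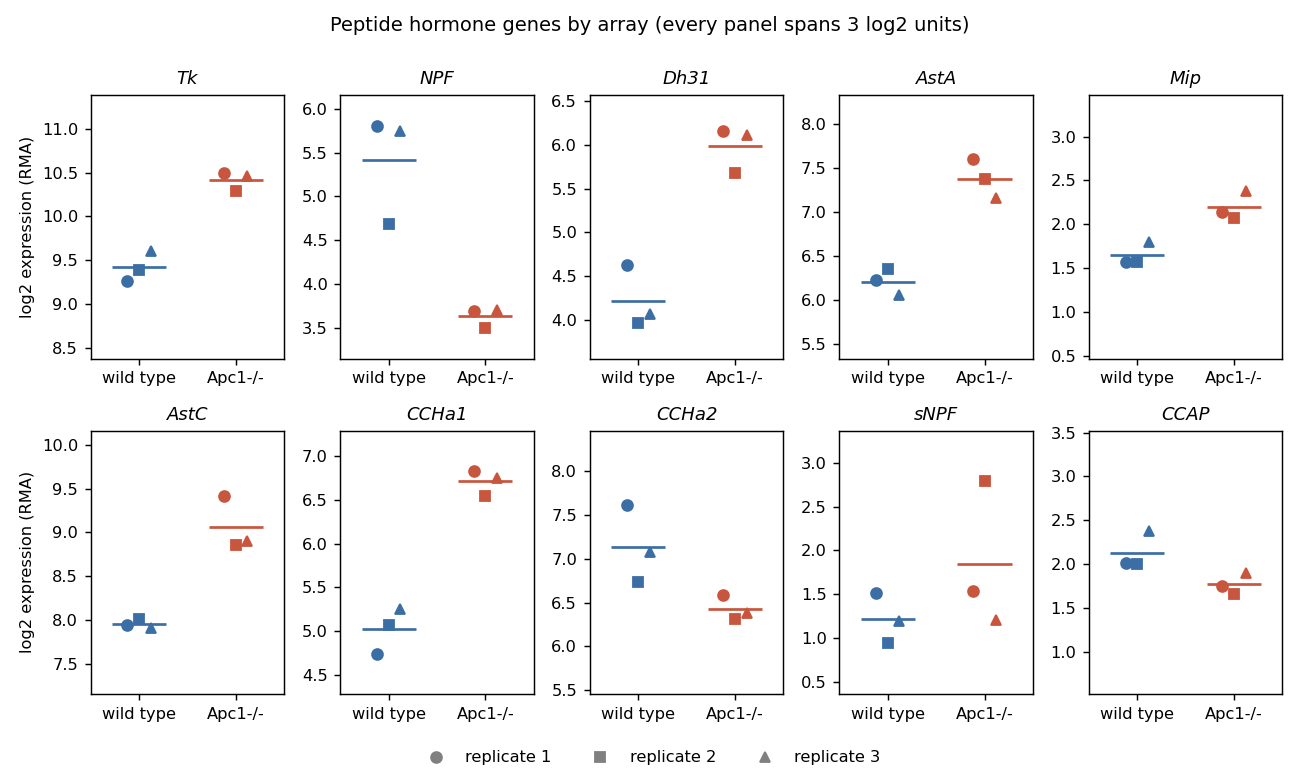
Log2 expression of each hormone gene on every array, wild type in blue and Apc1-/- in red, with the replicate number as the symbol and the group mean as a line. The vertical axis differs between panels but always spans 3 log2 units. The groups are apart in every panel except that of *sNPF*, where 1 mutant array stands high at 2.79.

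*Tk* encodes the tachykinins, which act on enterocytes to hold down lipid synthesis. Its log2 values were 9.26, 9.39 and 9.61 on the wild-type arrays and 10.50, 10.29 and 10.46 on the mutant arrays. The lowest mutant value was above the highest wild-type value, and the genotypes differed by 0.99 ± 0.13 (SE, limma adjusted p = 0.00392), a 1.99-fold increase with a 95% confidence interval from 1.60 to 2.47.

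*Dh31*, the calcitonin-like diuretic hormone that drives contraction of the gut muscle, had an increase close to that of *CCHa1*, and the order of the 2 estimates turned without wild type replicate 2 (1.63 for *Dh31* and 1.71 for *CCHa1*) or 3 (1.69 and 1.80). It was at 4.63, 3.97 and 4.08 in wild type and at 6.16, 5.67 and 6.11 in *Apc1* mutants, so that every mutant array lay more than 1 log2 unit above every wild-type array. The difference was 1.76 ± 0.22 (SE, limma adjusted p = 0.00279), or 3.38-fold.

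*NPF*, related to vertebrate neuropeptide Y and released from the midgut in response to mating and to sugar, was the exception within this cell class. Wild-type values were 5.80, 4.69 and 5.74, and mutant values were 3.70, 3.50 and 3.70. The mutant arrays lay close together and below all wild-type arrays, while wild type replicate 2 lay about midway between the other wild-type arrays and the mutants. The mean fell by 1.78 on the log2 scale ± 0.29 (SE, limma adjusted p = 0.00939), a level 3.43-fold higher in wild type than in mutants. Wild type replicate 2 also had the highest summed level of 5 ovary and eggshell genes, 8.09 on the log2 scale against 5.86 and 6.09 on the other wild-type arrays and 4.35 to 5.32 on the mutant arrays. Without that array *NPF* fell by 2.14, so its decrease was larger without it.

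Among the genes of the other large class, *AstA* encodes the A-type allatostatins, whose receptors resemble vertebrate galanin receptors. The values were 6.22, 6.35 and 6.06 in wild type and 7.61, 7.38 and 7.16 in *Apc1* mutants. The difference of 1.17 ± 0.15 (SE, limma adjusted p = 0.00349) corresponds to 2.25-fold. *AstC* encodes a peptide with somatostatin-like receptors that is released from the gut during starvation. It was tightly grouped in wild type, at 7.94, 8.01 and 7.91, and rose to 9.41, 8.86 and 8.90, with mutant replicate 1 above the other mutant arrays. Its difference was 1.11 ± 0.17 (SE, limma adjusted p = 0.00655), or 2.15-fold.

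*CCHa1* encodes a peptide that signals from the gut to the brain and affects arousal during sleep. Its values were 4.74, 5.07 and 5.26 in wild type and 6.83, 6.55 and 6.75 in mutants, with a gap of more than 1 log2 unit between the genotypes. The increase of 1.69 ± 0.16 (SE) had the smallest adjusted p of the 10 genes (limma adjusted p = 0.00102) and corresponds to 3.22-fold. *CCHa2*, the related peptide that promotes feeding and the release of insulin-like peptides from the brain, lay the other way. Wild-type values of 7.61, 6.74 and 7.07 stood against 6.58, 6.31 and 6.38 in mutants. The groups did not overlap, but the wild-type arrays were spread, and the difference of -0.72 ± 0.22 (SE) missed the threshold (limma adjusted p = 0.0796). Wild type replicate 2 was again the lowest wild-type array, and without it *CCHa2* passed, with a difference of -0.92 (limma adjusted p = 0.0328).

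The remaining 3 genes were dim. *Mip*, which encodes the B-type allatostatins, was at 1.57, 1.56 and 1.80 in wild type and at 2.14, 2.08 and 2.37 in mutants, below the median of all probe sets on each of the 6 arrays. The groups were apart and *Mip* passed the test narrowly, with a difference of 0.55 ± 0.13 (SE, limma adjusted p = 0.0367), but with 1 array left out in turn it passed in 1 of 6 fits, that without wild type replicate 3 (limma adjusted p = 0.0414, against 0.0693 to 0.117 in the others). *CCAP*, known for its part in the moulting behaviour, was also below the median on all 6 arrays, at 2.01, 2.00 and 2.38 in wild type and 1.75, 1.66 and 1.90 in mutants. Its difference of -0.36 did not pass (limma adjusted p = 0.158).

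*sNPF*, a regulator of appetite made mostly by neurons, had wild-type values of 1.51, 0.94 and 1.20 and mutant values of 1.53, 2.79 and 1.21. The groups overlapped and the difference of 0.63 rested on mutant replicate 2. Without that array it was 0.16 (limma adjusted p = 0.709), compared with 0.349 over all arrays. For these 3 genes, values near the low end of the scale make the size of a difference depend on the background correction, which the sources used here do not give.

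**Figure D2:**
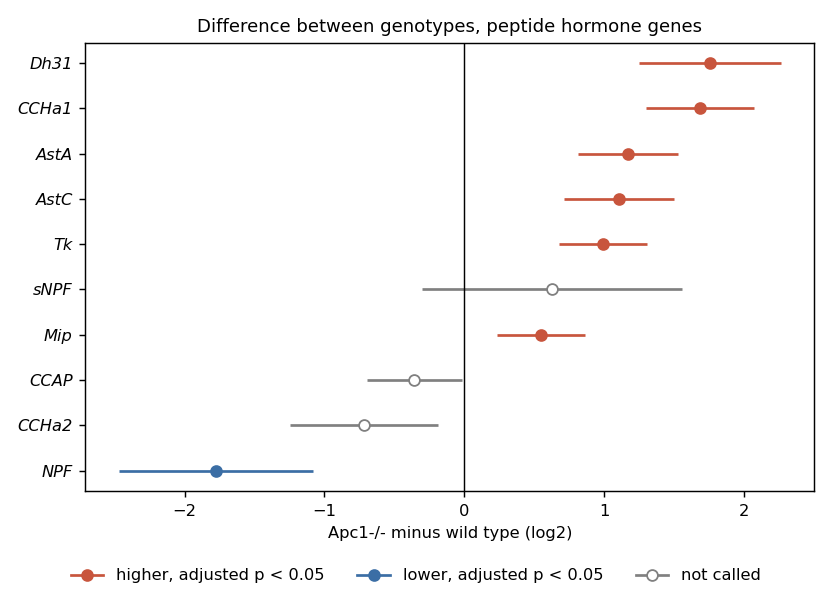
Difference in log2 expression, Apc1-/- minus wild type, for each hormone gene, with the 95% confidence interval from limma. Filled points passed an adjusted p of 0.05. The estimates run from 1.76 for *Dh31* to -1.78 for *NPF*.

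The genes that rose did not do so by the same amount in the estimates. *Dh31* and *CCHa1* rose by 1.76 and 1.69, whereas *AstA*, *AstC* and *Tk* rose by 1.17, 1.11 and 0.99. To compare genes with each other, the log2 value of one was subtracted from that of the other on the same array, for all 45 pairs. In 30 pairs the resulting values did not overlap between the genotypes, compared with 38.5% of all pairs of gene entries. The pairs share genes with each other. A pair of a higher and a lower gene, each without overlap by itself, could not overlap. This held for every pair of the 6 higher with the 3 lower genes, so most of the 30 pairs were fixed by the single genes. The count is therefore not a separate result to set against the 38.5%. With 3 arrays against 3, an exact two-sided permutation test cannot give a p under 0.1, which is 0.15 after Benjamini-Hochberg adjustment over the pairs, so no pair could pass.

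*Tk* and *NPF* encode hormones made together in some cells of the anterior and middle gut. *Tk* was higher and *NPF* lower, each without overlap, so their ratio could not overlap between the genotypes. *Tk* minus *NPF* was 3.46, 4.71 and 3.87 on the wild-type arrays and 6.80, 6.79 and 6.75 on the mutant arrays, a shift of 2.77 (exact permutation p = 0.1). *CCHa1* minus *CCHa2* went from -2.87, -1.67 and -1.81 to 0.25, 0.24 and 0.37, a shift of 2.40 (exact permutation p = 0.1). This ratio could not overlap either, as *CCHa1* was higher and *CCHa2* lower, each without overlap. In both ratios the mutant arrays lay within a narrower range than the wild-type arrays. Of the 15 pairs among the 6 genes that rose, 8 did not overlap between the genotypes and 7 did. Of all pairs of gene entries, 38.5% did not overlap, and the 15 pairs share genes with each other. *CCHa1* minus *Mip* shifted by 1.14, *Dh31* minus *Tk* by 0.77 and *Dh31* minus *AstC* by 0.65, all without overlap (exact permutation p = 0.1 each). Several of the 8 pairs held *Mip*, which was below the array medians on all 6 arrays, so the size of those shifts depends on the background correction. *CCHa1* minus *Tk* shifted by 0.69 with no overlap between the genotypes (exact permutation p = 0.1), while *AstC* minus *Tk* shifted by 0.11 (exact permutation p = 0.6), *AstA* minus *AstC* by 0.07 (exact permutation p = 0.7) and *Dh31* minus *CCHa1* by 0.07 (exact permutation p = 1), all with overlap.

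Individual samples also differed across the hormone genes. Among the mutant arrays, replicate 2 was the lowest for 8 of the 10 genes and replicate 1 the highest for 6. Among the wild-type arrays, replicate 2 was the lowest for 6. These differences between replicates were smaller than those between the genotypes for each of the 7 genes that passed. The test that these genes passed sets the genotype difference against this spread, so this is no separate support.

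The homeodomain factor *pros*, which marks enteroendocrine cells, rose as well. Its values were 5.03, 4.82 and 5.04 in wild type and 6.25, 6.13 and 6.45 in *Apc1* mutants, a difference of 1.32 ± 0.13 (SE, limma adjusted p = 0.00119). This change lay within the range of the 6 hormone genes that rose, 0.55 to 1.76, and each hormone was also expressed relative to *pros* on the same array. Relative to *pros*, the values of *Dh31* (0.44), *AstA* (-0.14), *AstC* (-0.21) and *Tk* (-0.32) overlapped between the genotypes. *CCHa1* shifted by 0.37 without overlap. *NPF* was lower by 3.09 log2 units relative to *pros*, going from 0.77, -0.13 and 0.71 to -2.55, -2.63 and -2.75. *CCHa2* and *CCAP* stood at -2.03 and -1.67 relative to *pros*, and *Mip* at -0.77, all 3 without overlap, while *sNPF*, at -0.69, overlapped. Each of these values holds the rise of *pros* by 1.32 with its sign turned. It makes up most of the value of *CCAP* and *CCHa2* and sets the sign of that of *Mip*, which rose by itself. As *CCAP* and *Mip* were below the array medians on all 6 arrays, their values relative to *pros* mostly restate the change of *pros*. The exact permutation p was 0.1, the smallest possible, for each of the 5 genes without overlap. Of these, *NPF*, *CCHa2* and *CCAP* could not overlap, as each was lower and *pros* higher, all without overlap by themselves. The share of all entries without overlap relative to *pros* was not determined, while that of all pairs of gene entries was 38.5%.

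**Figure D3:**
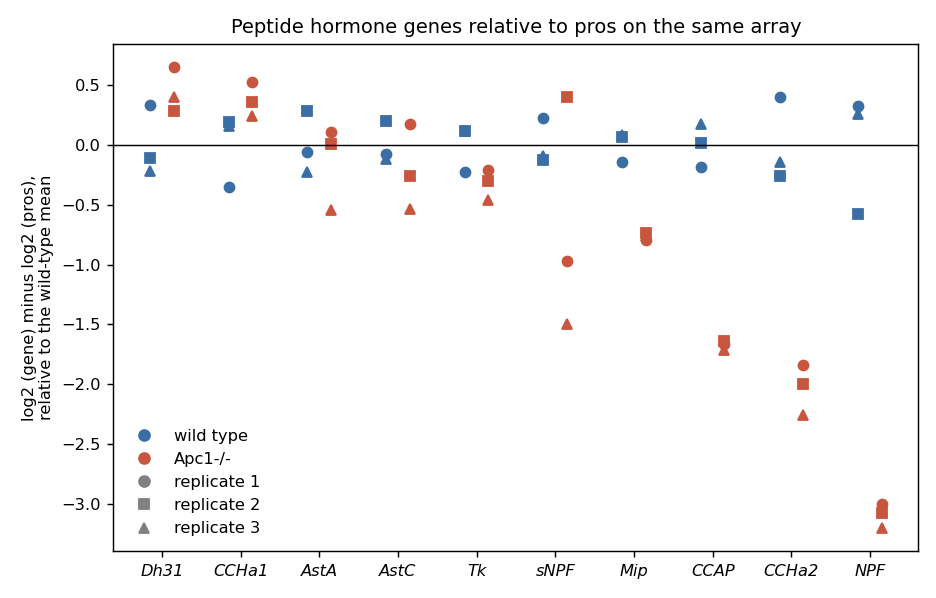
Log2 expression of each hormone gene minus that of *pros* on the same array, shown relative to the wild-type mean, with wild type in blue, Apc1-/- in red and the replicate number as the symbol. The mutant arrays of *NPF* lie farthest below the wild-type arrays, at a mean shift of -3.09, and every shift holds the rise of *pros* by 1.32 with its sign turned.

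The direction of some shifts, among them those of *Tk*, *AstA* and *AstC*, depended on the gene used as the reference. With *amon*, the prohormone convertase, in place of *pros*, *Tk* stood at 0.70, *AstA* at 0.88 and *AstC* at 0.81, each higher in mutants and without overlap. With the mean of 7 enteroendocrine marker genes, *Tk* stood at 0.36. *NPF*, *CCHa2* and *CCAP* were lower and *Dh31* and *CCHa1* higher in mutants under each of these references, though *CCAP* overlapped with *amon* (exact permutation p = 0.3). *Mip* turned to 0.25 with *amon* (exact permutation p = 0.5) and stood at -0.09 with the marker mean (exact permutation p = 0.6), both with overlap. *sNPF* turned to 0.33 with *amon* and overlapped under each reference. Of the 7 enteroendocrine marker genes, 2 passed the test, *pros* and *IA-2*, both higher, where 8.89% of all entries rose. The summed level of the 7 genes on the log2 scale was 8.77 to 9.22 in wild type and 9.56 to 9.69 in mutants. *IA-2* had the highest value of the 7 genes on every array, so it weighs most in this sum. A dimmer probe set of *IA-2* differed by 0.14 (adjusted p in the limma fit of all probe sets = 0.644). The differences of the 7 genes ran from -0.27 to 1.32, with a median of 0.68.

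Among the genes that turn the precursors into active peptides, 1 of 8 passed, which is near the background. *Phm*, the enzyme that carries out the first step of peptide amidation, rose from 6.56, 6.48 and 6.72 to 7.72, 7.90 and 7.55, by 1.14 ± 0.14 (SE, limma adjusted p = 0.00251), and its second probe set rose by 0.84 (adjusted p in the limma fit of all probe sets = 0.013). *amon*, which cleaves prohormones, went from a mean of 5.31 to 5.60 with overlapping values, a difference of 0.30 (limma adjusted p = 0.481). *7B2*, the helper protein of *amon*, had a difference of 0.68 that did not pass (limma adjusted p = 0.0947).

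For vesicle release, 3 of 12 measured genes rose and none fell, where 8.89% of all entries rose and 5.39% fell. *Cadps*, needed for the exocytosis of dense core vesicles, rose from 2.17, 1.77 and 2.48 to 4.21, 3.87 and 3.83, by 1.83 ± 0.21 (SE, limma adjusted p = 0.00199). The wild-type values lay below the array medians and the mutant values above them. A second, dimmer probe set rose by 0.53 (adjusted p in the limma fit of all probe sets = 0.038), and the mean of both by 1.18 (limma adjusted p = 0.0019). *IA-2*, a membrane protein of these vesicles, rose by 0.98 (limma adjusted p = 0.00665), although a dimmer probe set of the gene differed by 0.14 (adjusted p in the limma fit of all probe sets = 0.644). *Syt1*, a calcium sensor also found in neurons, rose by 0.59 (limma adjusted p = 0.0144), with a second probe set at 0.02 (adjusted p in the limma fit of all probe sets = 0.949). With the mean of both it did not pass (0.30, limma adjusted p = 0.106), nor without mutant replicate 2 (0.0597) or 3 (0.0529). *Rab3*, a small GTPase of secretory vesicles, had a difference of 0.92 that narrowly missed the threshold (limma adjusted p = 0.0514).

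Of the 16 genes of enteroendocrine fate and identity, 4 rose and 1 fell, where 8.89% of all entries rose and 5.39% fell. Besides *pros*, the homeobox gene *mirr* rose by 1.33 (limma adjusted p = 0.02), *esg*, a marker of stem cells and enteroblasts, by 1.10 (limma adjusted p = 0.000761), and the zinc finger gene *drm*, known from patterning of the gut ends, by 1.48 (limma adjusted p = 0.000672). *mirr* did not pass without wild type replicate 1 (limma adjusted p = 0.0621) or 2 (0.0518) or mutant replicate 1 (0.0541). *Ptx1*, a homeobox gene, fell from 7.92, 7.80 and 8.09 to 6.17, 5.96 and 5.89, by 1.93 ± 0.13 (SE, limma adjusted p = 0.000232), while a second, dim probe set of it differed by -0.23 (adjusted p in the limma fit of all probe sets = 0.308). *dimm*, a regulator of peptidergic cells in the nervous system, was dim in both genotypes, with a difference of -0.07 (limma adjusted p = 0.861). Of the 16 genes, 7 were below the median of all probe sets on all 6 arrays, among them *ase*, *tap*, *Poxn*, *nerfin-1*, *phyl* and *cas*.

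The receptors of the 10 peptides were mostly dim, and none of the 13 had a mean over all arrays of at least 5. The receptors that passed were 3 of 13, against 14.3% of all entries. Of these, 2 fell (5.39% of all entries) and 1 rose (8.89% of all entries). *Dh31-R*, the receptor of Dh31, was at 5.98, 4.97 and 5.40 in wild type and at 3.42, 3.06 and 3.77 in *Apc1* mutants. It fell by 2.04 ± 0.29 (SE, limma adjusted p = 0.00486), so receptor and ligand transcripts differed in opposite directions. Its second probe set fell by 3.34 (adjusted p in the limma fit of all probe sets = 0.000295).

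*AstA-R2*, one of a pair of AstA receptors, was at 5.15, 5.21 and 5.62 in wild type and at 2.91, 3.20 and 2.82 in mutants. It fell by 2.35 ± 0.17 (SE, limma adjusted p = 0.000292), again opposite to its ligand. The other, *AstA-R1*, was at the low end in both genotypes, with a difference of 0.01 (limma adjusted p = 0.973). *sNPF-R* rose by 1.05 (limma adjusted p = 0.0247), from values of 1.69, 1.81 and 1.99 below the array medians to 2.37, 3.11 and 3.17. With 1 array left out in turn it passed in 2 of 6 fits, without wild type replicate 3 and without mutant replicate 1, and the adjusted p was 0.0588 to 0.0896 in the others.

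*TkR99D*, through which gut tachykinin acts on enterocytes, had a difference of 1.09 and no overlap between the genotypes but did not pass (limma adjusted p = 0.0632). The mean of *NPFR* differed by -0.63 (limma adjusted p = 0.191). *SPR*, the receptor of Mip and of sex peptide, differed by -1.35 (limma adjusted p = 0.315), with wild type replicate 2 far above the other wild-type arrays at 5.94. The receptors *TkR86C*, *AstC-R1*, *AstC-R2*, *CCHa1-R*, *CCHa2-R* and *CCAP-R* had differences between -0.07 and 0.19, and none of them passed.

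**Figure D4:**
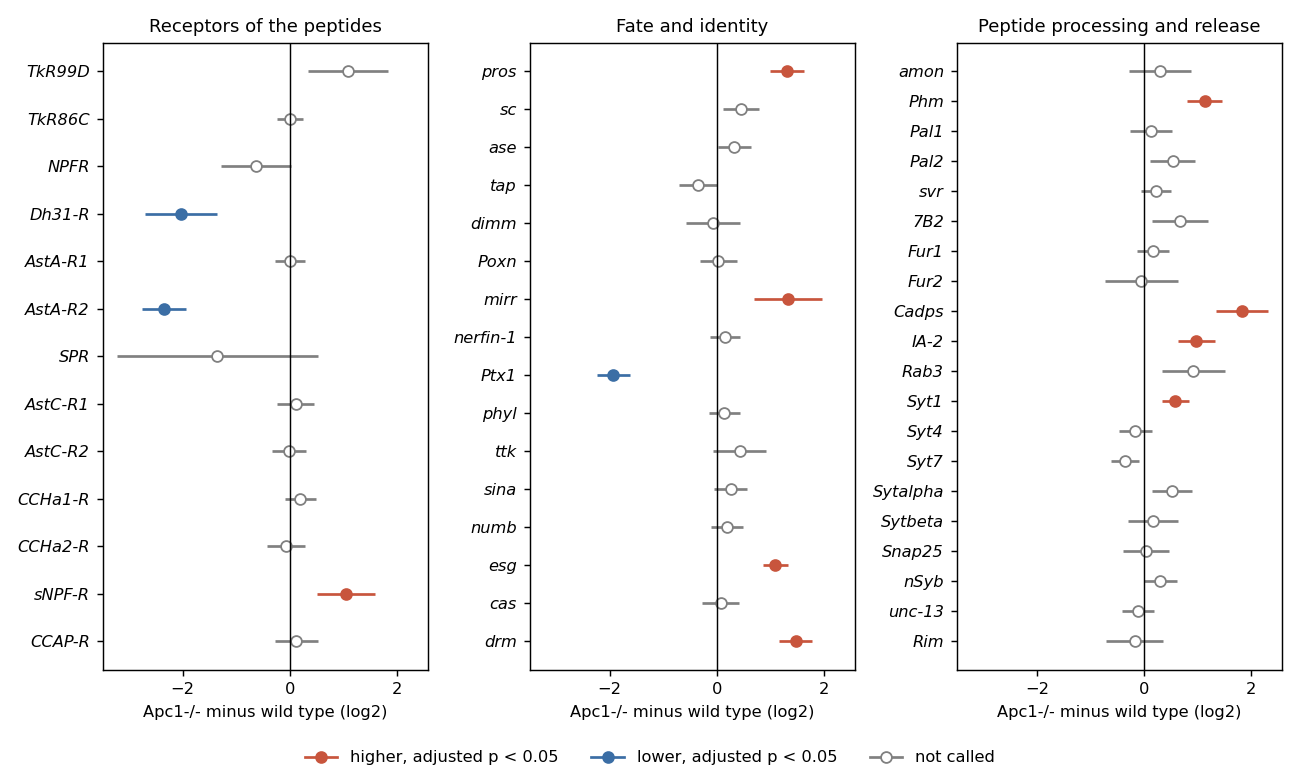
Difference in log2 expression, Apc1-/- minus wild type, with the 95% confidence interval from limma, for receptors of the peptides (left), fate and identity genes (middle) and genes of peptide processing and release (right). Filled points passed an adjusted p of 0.05. *AstA-R2* (-2.35) and *Dh31-R* (-2.04) lie far to the left among the receptors.

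Few of the other peptide hormone and neuropeptide genes passed the test. Of 28 measured genes, 1 rose and 1 fell, fewer than the background share, and 16 were below the median of all probe sets on all arrays. The genotypes did not overlap in 4 of the 28 genes, where 35.2% of all entries did not overlap. *ITP*, the ion transport peptide, rose from 5.68, 5.96 and 5.89 to 7.06, 6.92 and 7.27, by 1.24 ± 0.14 (SE, limma adjusted p = 0.00201). *Ilp3*, an insulin-like peptide also made by the muscle around the gut, fell from 4.58, 4.90 and 2.65 to 1.46, 1.32 and 1.76, by 2.54 ± 0.55 (SE, limma adjusted p = 0.0247). Without wild type replicate 3, its low wild-type array, it fell by 3.23 (limma adjusted p = 0.000756), and leaving out any of the other 5 arrays ended the call (limma adjusted p from 0.0534 to 0.078). *Orcokinin*, another gut peptide gene, had a difference of 0.16 with overlapping values (limma adjusted p = 0.774).

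Markers of some other cell types also differed between the genotypes, and their part in the results above was not tested. Of all entries, 8.89% were called higher and 5.39% lower. The copper cell factor *lab* had values of 6.98, 5.90 and 6.96 in wild type and 2.10, 2.10 and 2.26 in *Apc1* mutants, a decrease by 4.46 (limma adjusted p = 0.000185), and the summed level of 4 copper cell region genes was 8.44 to 9.73 in wild type and 6.78 to 7.96 in mutants, with 2 of the 4 called, both lower. The other was *Vha100-4*, a proton pump subunit of these cells, which fell by 6.63 to values between 1.39 and 1.95, below the array medians. Progenitor markers summed to 6.80 to 7.02 in wild type and 7.56 to 7.76 in mutants, with 2 of 7 called, both higher. Neuron markers, which bear on peptides that nerves also make, summed to 7.78 to 8.04 in wild type and 7.50 to 7.59 in mutants, with 1 of 10 higher (*Syt1*) and 1 lower (*elav*, a defining neuron marker, which fell by 0.54, limma adjusted p = 0.0358). Among the 10 genes *elav* had the highest value on every array, so it weighs most in this sum. Their median difference was -0.06, so the lower sum of neuron markers does not describe that list as a whole. Enterocyte markers summed to 13.62 to 13.94 in wild type and 12.87 to 13.26 in mutants, with 1 of 8 higher and 3 lower. The higher gene was *Myo61F* (0.65), and the lower ones were *mag* (-4.97), *betaTry* (-2.04) and *alphaTry* (-0.53). The median difference of the 8 genes was 0.16, so the lower sum does not describe the list as a whole. Muscle markers had overlapping ranges of 12.59 to 12.88 and 12.60 to 12.87, with 1 of 9 higher and 1 lower. The summed fat body markers were 9.86 to 11.71 in wild type and 7.07 to 9.75 in mutants, and Malpighian tubule markers 7.35 to 8.51 and 7.94 to 8.80, and no gene of these lists or of the 5 ovary genes passed, the fat body gene *Lsp2* being below the array medians on all 6 arrays. *Apc* itself, the transcript of *Apc1*, did not separate the genotypes (6.36 ± 0.41 and 6.49 ± 0.41, SD, n = 3; limma adjusted p = 0.781). Of the 10 hormone genes, 6 lie on chromosome arm 3R with *Apc1*, at 431 (*AstA*) to 1821 (*Tk*) places from it among the measured genes of that arm. Both genes with increases on 2L, *Dh31* and *AstC*, and *Mip* on 3L lie on other arms.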

How the data were processed

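The deposited table holds 1 log2 value per probe set and array, which the authors made from the Affymetrix scans by RMA normalization and log2 transformation; the background correction is not given in the sources used here. Its columns of fold changes and p-values for the genotypes and of group summaries were not used. Of 18952 probe sets, 183 controls and 3977 unnamed ones were left out, and the others were named through their RefSeq accession (14363), symbol or synonym (311) or the file's name alone (118). A gene with several probe sets was represented by the one with the highest mean over all arrays, which gave 12998 entries. Medians of the arrays ran from 2.54 to 2.60, and the number of arrays limits the precision.

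Genotypes were compared with limma 3.58.1 in R 4.3.3 (lmFit and eBayes), with Benjamini-Hochberg adjustment over all entries, and called at an adjusted p under 0.05. Differences are *Apc1* mutant minus wild type, SD and n refer to arrays, and values of further probe sets came from a fit over 18769 probe sets. Within-array differences were tested with exact two-sided permutation tests in scipy 1.17.1. Summed marker levels are the log2 of the sum of the unlogged values. The procedure was tested on simulated data. The hormone genes and the gene lists were chosen with earlier results of these data known. The genes named are the 10 hormone genes, every receptor, *pros*, *amon*, *Phm*, *dimm*, *Apc*, members of the lists that passed, and the defining markers; *7B2*, *Rab3*, *Orcokinin*, *ase*, *tap*, *Poxn*, *nerfin-1*, *phyl* and *cas*, and the pairs given in full, were chosen after their values were seen.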

Additional observations from a re-analysis of the deposited data

How the results depend on the processing

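Of the 10 hormone genes, *Tk*, *Dh31*, *AstA*, *AstC*, *CCHa1* and *NPF* passed under every alternative in which they were tested, except *Tk*, at 1.99-fold, once a change of more than 2-fold was required. *NPF* was not tested once genes with a mean under 5 were left out. The count of 7 ranged from 6 to 7 with 1 array left out, was 6 at an adjusted p under 0.01, and was 5 with a change of more than 2-fold also required or without the genes of mean under 5, which left 6 to test. *Mip* did not pass in 5 of the 6 fits with 1 array left out, and *CCHa2* passed in 1 of them. The replicate number as a block gave 8, as *CCHa2* passed (adjusted p = 0.0437). Deviations of same-numbered arrays correlated at 0.15, 0.20 and 0.01, so the numbers were not taken to pair the samples.

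The 2 other peptide genes became 1 at an adjusted p under 0.01 or with genes under a mean of 5 left out, 4 with the replicate block, and 1 to 2 with 1 array left out, where *Ilp3* passed in 1 of 6 fits. The 1 processing gene became 2 when every probe set was counted, and 1 to 2 with 1 array left out. The 3 release genes became 1 with a change of more than 2-fold required or with genes under a mean of 5 left out, which left 1 gene, 2 with the mean of all probe sets, where *Syt1* was lost, and 2 to 4 with 1 array left out. No receptor was left to test under that filter. With 1 array left out, *dimm* ranged from -0.27 to 0.14, *mirr* passed in 3 of 6 fits, *sNPF-R* in 2 and *Syt1* in 4. *TkR99D* passed without mutant replicate 2 (adjusted p = 0.0495) or 3 (0.0496), and *Rab3* with median centring (0.0467) or array weights (0.0491). The causes were not tested.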
